A study of Mus musculus with 4 samples.

Results

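The axon guidance ligands and receptors of mouse were described here across spatial transcriptome sections of brain organoids grown with different retinoids. Members were chosen by symbol, with earlier results of these data known. The symbols taken were semaphorins of classes 3 to 7, plexins, neuropilins, Slits, Robos, netrins, netrin-G genes, Dcc, Unc5 receptors, ephrins and Eph receptors. This gave 70 genes of 22218 in all, 36 ligands and 34 receptors, and all 70 were listed in each of the 4 sections. By family they were 20 semaphorins, 11 plexins and neuropilins, 7 Slits and Robos, 10 netrins with Dcc and Unc5, 14 Eph receptors and 8 ephrins.

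Growing axons are steered by cues that attract or repel the growth cone. Secreted netrins act through Dcc and Unc5 receptors, Slits repel through Robos, class 3 semaphorins act through neuropilins paired with plexins, and other semaphorins bind plexins directly. Ephrins are held on the cell membrane and meet Eph receptors on a neighbouring cell, with signals running both ways.

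All organoids came from CARLIN/Cas9 mouse embryonic stem cells, with 5000 cells put in each well, and all carried the same genotype. The medium first held B27 supplement without vitamin A. B27 supplement is given as 2% for every group. From day 9 group VitaminA was given B27 supplement containing vitamin A. Group ATRA was given 1 µM all-trans retinoic acid, which activates every retinoic acid receptor. Group BMS753 was given 1 µM of the RAR-alpha agonist BMS753. Group BMS961+BMS641 was given 0.1 µM of BMS961 with BMS641, agonists of RAR-gamma and RAR-beta. All of these started on day 9. Sections were made at 3 months from molds holding several organoids, so a section can hold more than 1 of them, and placed on arrays of barcoded poly-T spots. There was 1 section per group: no test of a treatment was possible, every difference below compares sections, and section, array and treatment cannot be told apart.

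The numbers of spots were 552, 593, 469 and 365 for VitaminA, ATRA, BMS753 and BMS961+BMS641. The files give a signal whose quantiles were made equal over the spots of each section up to a factor per spot, so the depth of each spot is unknown. The lowest values of a spot are ties that were split by the order of genes in the file. This lowest class is treated here as not detected, and the median number of genes above it per spot was 4659, 3388, 3330 and 4462. All 12 neuronal marker genes reached 5 ppm in every section. Nefl was near that level, at 5.79 to 6.74 ppm, as was Nefm in BMS961+BMS641, at 5.24 ppm. Of 7 markers of neural progenitors, 5 or 6 were listed in a section, and 1 or 2 reached 5 ppm. Of 6 mesenchymal markers 5 or 6 reached it, of 6 endothelial markers 4 or 5, and of 8 markers of the oligodendrocyte lineage 5 to 7. In the comparisons below, 14794 to 15676 genes reached 5 ppm in one section or both. The share of all genes reaching it in a section was not counted, so these counts do not set cell types apart. Detection followed gene length, as given below, and its part in these counts was not tested. The 6 epithelial markers summed to 1448 ppm in BMS961+BMS641, of which Epcam made up 921 ppm and Cdh1 502 ppm, against 75.2 to 110 ppm in the other sections.

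The level of a gene is its mean signal over spots, in ppm (parts per 1000000 of the summed signal of the section). A difference between sections is the log2 ratio of levels with 1 ppm added, for genes that reached 5 ppm in one section or both, minus the median over all genes compared. That median was -0.33 for ATRA over VitaminA, 0.31 for BMS753 over VitaminA, -0.25 for BMS961+BMS641 over VitaminA and 0.71 for BMS753 over ATRA. Each section was split into 4 quadrants. A member is called higher or lower where the ratio passes 2-fold and all 16 pairs of quadrants lie on the same side. Quadrants share a section, so they show the spread within it and not the spread between organoids. Where quadrants are said to overlap or to stand apart, levels in ppm are meant, without the median subtracted. How many of all genes stand apart in this way was not counted. The 3 comparisons with VitaminA share that section, and BMS753 over ATRA shares the ATRA section, so they are not independent of one another.

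In each section the share of spots in which a member was detected followed the length of its gene. The median member was detected in 42.8%, 32.0%, 30.9% and 37.9% of spots in VitaminA, ATRA, BMS753 and BMS961+BMS641. Over all genes the medians were 11.6%, 8.26%, 9.38% and 12.3%. Members are long genes: their median genomic span was 57.1 kb, against 18.4 to 19.7 kb over all genes with a span (spans from the GRCm38.p6 annotation, which is not the build of the files). Across the 70 members the Spearman correlation of span with the share of spots was 0.87, 0.88, 0.90 and 0.84 in the same order of sections. Across all genes it was 0.83, 0.80, 0.84 and 0.80. These are descriptions across genes of 1 library each. The longest members, Robo2 (1555 kb), Dcc (1098 kb) and Robo1 (1020 kb), were detected in 67.8% to 99.3% of spots. The shortest, Efna4 (4.64 kb) and Ntn3 (5.56 kb), were detected in 2.02% to 18.1%. The part of gene length in these levels was not tested, so levels are compared below between sections for 1 gene at a time.

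**Figure D1:**
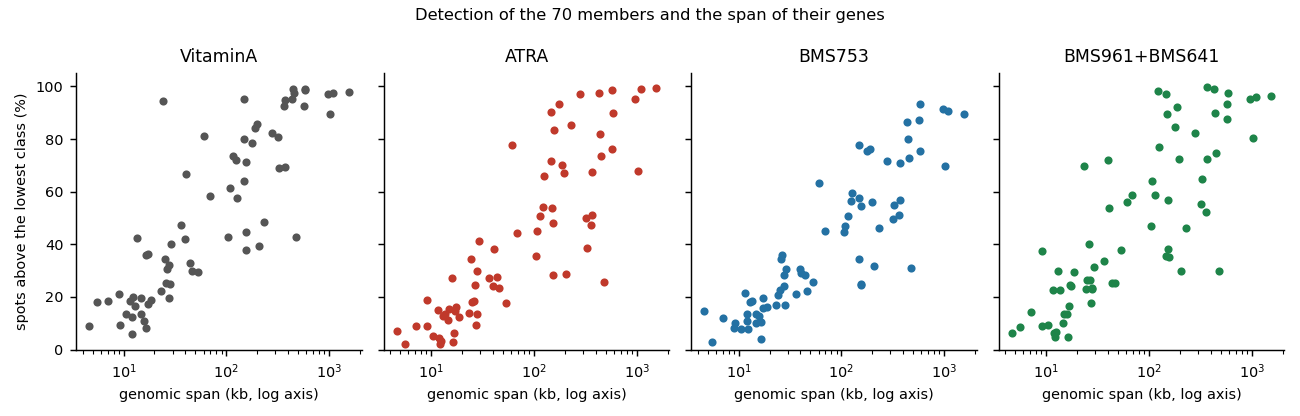
Share of spots above the lowest class (percent, vertical axis) against genomic span (kb, log axis) for the 70 members, 1 point per gene and 1 panel per section. The points climb with span in every panel, and Ephb4 stands out in VitaminA at 94.6% of spots for a span of 24.4 kb.

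Members had little pattern within a section once the total of each spot was divided out. Moran's I, which is near 1 where neighbouring spots carry like values and near 0 where they do not, had medians over members of 0.0048, 0.0067, 0.0065 and 0.0045 in VitaminA, ATRA, BMS753 and BMS961+BMS641. The medians over all genes were -0.0023, -0.0022, -0.0028 and -0.0037. The number of genes per spot, in contrast, had a Moran's I of 0.33 to 0.55. The highest value of a member was 0.10, for Sema5b in BMS753, followed by 0.091 for Sema5a and 0.082 for Slit2 in the same section.

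**Figure D2:**
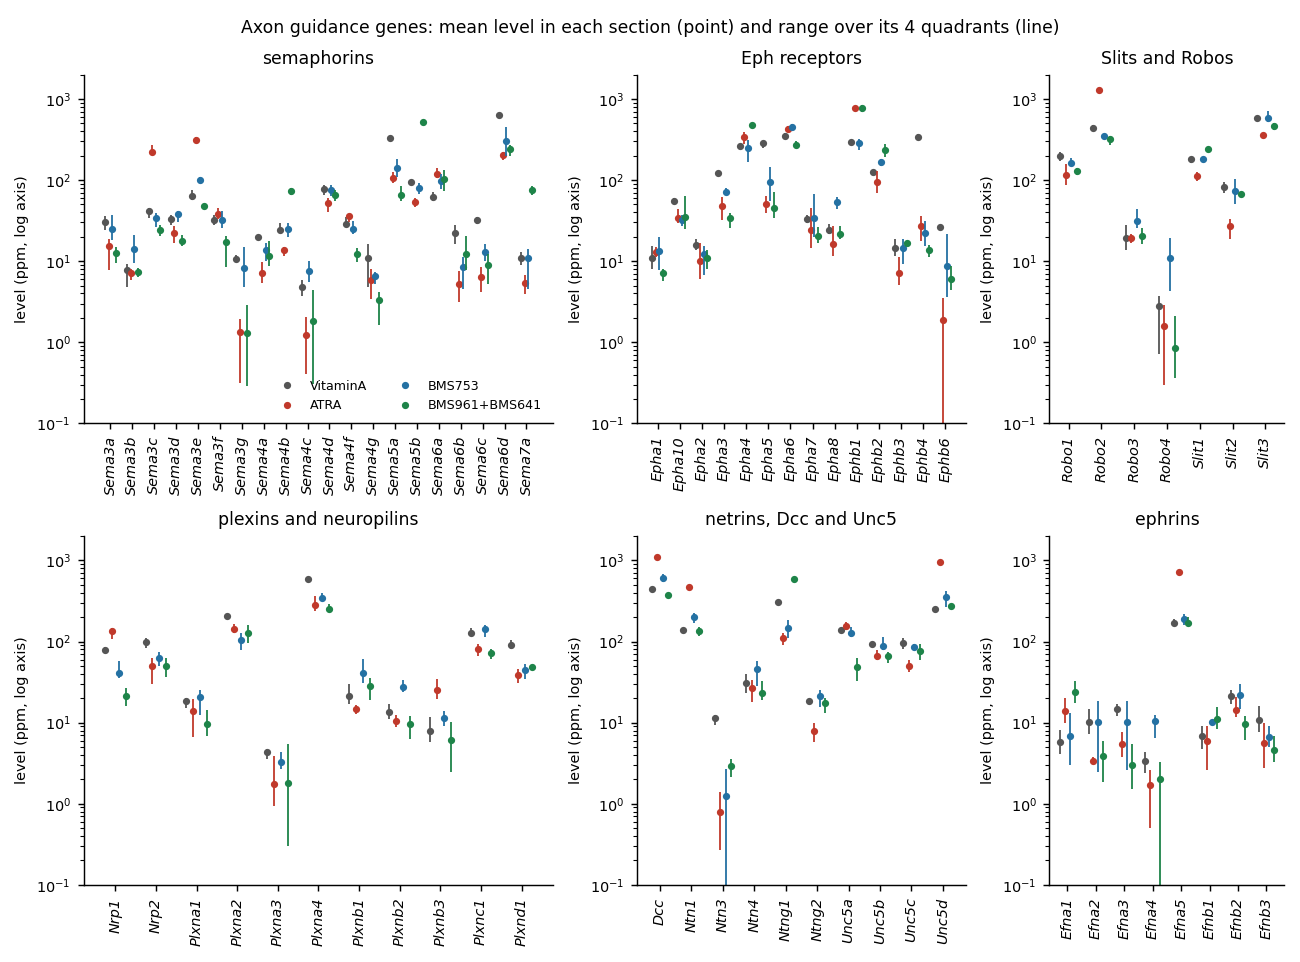
Level of each of the 70 members (ppm, log axis) in the 4 sections, by family. Points are section means and lines the range over 4 quadrants of a section, drawn down to 0.1 ppm where a quadrant was lower; Ephb4 lies at 340 ppm in VitaminA and at 13.8 to 27.1 ppm elsewhere, and Sema5b at 520 ppm in BMS961+BMS641.

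Compared with VitaminA, the ATRA section had more signal from netrin-1 and its receptors Dcc and Unc5d, from Robo2, from the class 3 semaphorins Sema3c and Sema3e, from ephrin-A5 and from the Eph receptor Ephb1. It had less from the Eph receptors Ephb4, Ephb6 and Epha5 and from Sema6b, Sema6c and Sema6d, while Sema6a was higher. Of 66 members compared, 12 were called higher, where 11.7% of all genes compared were, and 14 were called lower, where 13.7% were. With the lowest class set to 0, all 12 higher calls and 9 of the 14 lower calls were made again. The median member lay at -0.25 relative to all genes, and at -0.06 with the lowest class at 0. Higher and lower calls numbered 12 and 9 with the lowest class at 0, 12 and 6 by the tie index, and 10 and 18 without centring. The tie index of a gene is the place of its class of tied values among all such classes of the spot, counted from the lowest.

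BMS753, the RAR-alpha agonist, differed from VitaminA mainly on the lower side. Of 69 members compared, 1 was called higher, where 7.33% of all genes were, and 15 were called lower, where 13.3% were. With the lowest class at 0, the single higher call, Efna4, and 11 of the lower calls were made again. No member was called higher with a pseudocount of 5 ppm, with a filter of 20 ppm or with centring in bins of span, nor without quadrant 1 of VitaminA or quadrant 3 of BMS753. The median member lay at -0.33, and at -0.06 with the lowest class at 0. By the tie index, 3 were called higher and 8 lower, and without centring 3 and 10.

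The BMS961+BMS641 section differed from VitaminA in both directions. Of 66 members, 8 were called higher, where 12.9% of all genes were, and 12 were called lower, where 13% were. With the lowest class at 0, all 8 higher calls and 10 of the lower calls were made again. The median member lay at -0.28, and at -0.09 with the lowest class at 0. Higher and lower calls numbered 10 and 10 in that setting and by the tie index, and 5 and 19 without centring.

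BMS753 and ATRA were given at the same concentration and for the same time, so these sections can be set against each other directly. Of 68 members, 3 were called higher in BMS753, where 5.83% of all genes were, and 13 were called lower, where 12.7% were. All 16 calls were made again with the lowest class at 0. The median member lay at -0.17, and at -0.08 with the lowest class at 0. Without centring, 10 were called higher and 9 lower, and the median member lay at 0.54, on the other side of 0.

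**Figure D3:**
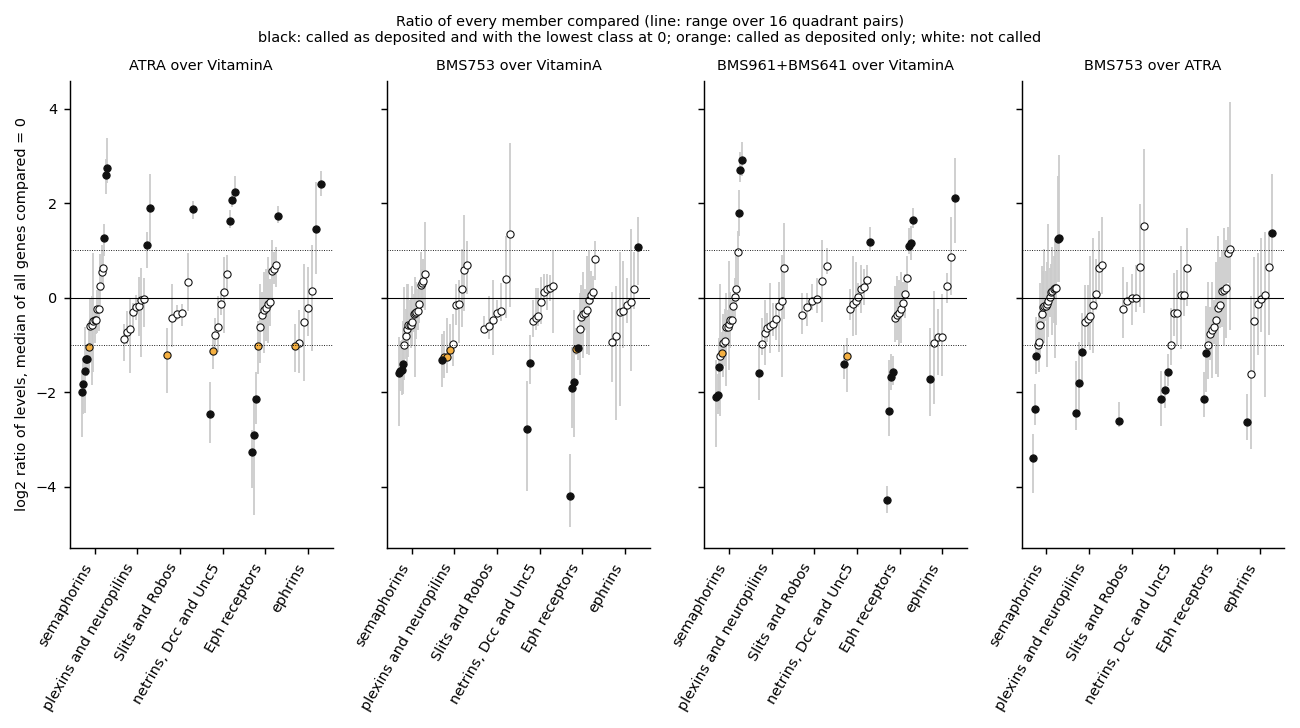
Log2 ratio of levels of every member compared, by family, in 4 comparisons; 0 is the median of all genes compared and the dotted lines mark 2-fold. Lines span the 16 quadrant pairs, and black points are the members called both as deposited and with the lowest class at 0: ATRA over VitaminA has 12 of these above 0 and 9 below.

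Of the netrin family, Ntn1, Dcc and Unc5d were called higher in ATRA over VitaminA and Ntn3 and Ntng1 lower. The family median was -0.002, with -0.46 to 0.35 over quadrant pairs, and 0.26 with the lowest class at 0. Ntn1, the secreted attractant netrin-1, was at 140 ppm in VitaminA, 470 ppm in ATRA, 199 ppm in BMS753 and 136 ppm in BMS961+BMS641. Every ATRA quadrant, the lowest at 438 ppm, was above every quadrant of the other sections, the highest of which was 226 ppm. The centred ratio to VitaminA was 2.07, with 1.93 to 2.20 over the quadrant pairs.

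Dcc, the receptor through which netrin-1 attracts axons, was at 444 ppm in VitaminA, 1091 ppm in ATRA, 602 ppm in BMS753 and 377 ppm in BMS961+BMS641. Its ratio of ATRA to VitaminA was 1.63, and BMS753 over ATRA gave -1.57. Unc5d, a member of the family of receptors through which netrins repel axons, was at 250, 944, 350 and 273 ppm in the same order of sections. ATRA again stood above the other sections without overlap of quadrants, with a ratio of 2.24 to VitaminA. Ntn1 and Dcc were both detected in 77.7%, 92.7%, 70.1% and 81.6% of spots in VitaminA, ATRA, BMS753 and BMS961+BMS641. Such shares move with the depth of the spots as well as with either gene.

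The other Unc5 receptors were not called in ATRA over VitaminA. Unc5a was at 140, 156, 129 and 49.0 ppm. Its BMS961+BMS641 level was called lower than in VitaminA at -1.24 and not called with the lowest class at 0, where the ratio was -0.96. Unc5b was at 93.3, 67.2, 88.4 and 65.6 ppm and Unc5c at 97.1, 49.9, 86.0 and 77.1 ppm, and neither was called in any comparison. Ntn4, a netrin of basement membranes, had overlapping quadrants in all sections, with levels of 23.2 to 46.0 ppm.

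The netrin-G genes encode membrane-anchored relatives of netrins that act at synapses and do not bind Dcc. Ntng1 was at 309 ppm in VitaminA, 112 ppm in ATRA, 147 ppm in BMS753 and 589 ppm in BMS961+BMS641. It was the member of this family with a higher call in BMS961+BMS641, at 1.18, and it was called lower in BMS753 at -1.38. The lower value in ATRA, -1.13, was called as deposited and not with the lowest class at 0, where it was -0.83. Ntng2 was at 7.88 to 21.6 ppm and was not called. Ntn3 was at 11.3 ppm in VitaminA and at 0.787 to 2.89 ppm elsewhere, near the 1 ppm added to each level.

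Robo2 had more signal in ATRA than in the other sections, and no Slit gene was called higher there. Robo2, a receptor for Slit repellents, was at 444 ppm in VitaminA, 1292 ppm in ATRA, 349 ppm in BMS753 and 324 ppm in BMS961+BMS641. The ratio of ATRA to VitaminA was 1.87, with 1.66 to 2.05 over quadrant pairs, and BMS753 over ATRA gave -2.60. The lowest ATRA quadrant, at 1237 ppm, was far above the highest quadrant of any other section, at 471 ppm. Robo1 was at 198, 116, 163 and 128 ppm and was not called. Robo3, which sets when commissural axons cross the midline, was at 19.1 to 31.6 ppm with overlapping quadrants, and Robo4, the endothelial Robo, was at 0.844 to 11.1 ppm.

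Among the Slits, Slit1 was at 180, 114, 179 and 241 ppm and had no call. All BMS961+BMS641 quadrants of Slit1, from 238 to 246 ppm, were above those of the other sections, but its ratio to VitaminA, 0.67, was under 2-fold. Slit2 was at 81.8, 27.4, 72.7 and 67.1 ppm. Its ratio of ATRA to VitaminA was -1.21, a lower call that was not made with the lowest class at 0, where it was -0.92. Slit3 was at 577, 359, 586 and 458 ppm with ratios to VitaminA between -0.35 and -0.08. Slit2 and Robo2 were both detected in 67.8%, 38.3%, 53.1% and 63.6% of spots in VitaminA, ATRA, BMS753 and BMS961+BMS641, so the section with most Robo2 had the smallest share of spots with both.

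Class 3 semaphorins are secreted and mostly repel axons through neuropilin and plexin complexes. Sema3c was at 40.9 ppm in VitaminA, 224 ppm in ATRA, 34.0 ppm in BMS753 and 24.5 ppm in BMS961+BMS641. It was detected in 83.3% of ATRA spots (95% exact Clopper-Pearson interval 80.1 to 86.2%) and in 24.5% to 37.7% of spots in the other sections. The interval covers the count of spots only. The ratio of ATRA to VitaminA was 2.75 and that of BMS753 to ATRA -3.40, the widest gap of any member between these ligands.

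Sema3e, which signals through Plxnd1 without a neuropilin, was at 64.3, 311, 99.6 and 47.7 ppm. Its ATRA ratio to VitaminA was 2.59, and BMS753 over ATRA gave -2.35. Its receptor Plxnd1 was at 90.5, 38.5, 44.5 and 48.5 ppm, and was called lower in BMS753 at -1.32, while the ATRA ratio of -0.88 was under 2-fold.

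Sema3a, the best studied repellent of the class, was not called, with 30.2, 15.6, 24.8 and 12.6 ppm. Sema3b, Sema3d and Sema3f were not called either, with levels of 7.21 to 37.8 ppm over the sections. Sema3g was at 10.7 and 8.23 ppm in VitaminA and BMS753 and at 1.33 and 1.29 ppm in ATRA and BMS961+BMS641. Those ratios to VitaminA, -2.00 and -2.10, rest on levels near the pseudocount.

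Nrp1, the neuropilin that binds Sema3a, was at 79.1 ppm in VitaminA, 137 ppm in ATRA, 40.8 ppm in BMS753 and 21.4 ppm in BMS961+BMS641. No quadrant of ATRA, from 107 to 146 ppm, overlapped with another section. The ratios to VitaminA were 1.11 in ATRA and -1.58 in BMS961+BMS641. The BMS753 ratio of -1.25 was not called with the lowest class at 0, where it was -0.96. BMS753 over ATRA gave -2.43. Nrp2, which binds Sema3f, was at 99.5, 49.4, 62.4 and 49.3 ppm and was not called, although each ratio to VitaminA lay below 0, from -0.97 to -0.67. Nrp1 is also made by endothelial cells. The 6 endothelial markers summed to 878 ppm in VitaminA, 654 ppm in ATRA, 371 ppm in BMS753 and 304 ppm in BMS961+BMS641, mostly from Flt1, with 1.71 to 3.24 ppm of Cldn5 where it was listed. Their part in the result was not tested.

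Plexins transmit semaphorin signals into the cell. Plxna4 was at 591, 283, 341 and 251 ppm, and Plxna2 at 206, 143, 106 and 126 ppm. Both were called lower in BMS753 over VitaminA, at -1.10 and -1.26, and neither call was made with the lowest class at 0. The Plxna4 ratio turned to 0.0001 by the share of spots, where this gene was detected in 80.0% to 98.9%. Plxna2 was also lower in BMS753 than in ATRA, at -1.15.

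Plxnb3 was at 8.00 ppm in VitaminA, 25.6 ppm in ATRA, 11.6 ppm in BMS753 and 6.15 ppm in BMS961+BMS641. ATRA stood above the other sections, with a ratio of 1.89. Plxna1, at 18.4, 13.9, 20.8 and 9.68 ppm, had no call, and neither had Plxnb1, Plxnb2 or Plxnc1. Plxna3 stayed under 5 ppm in every section and was not compared.

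Class 5 semaphorins carry thrombospondin repeats and can attract or repel. Sema5b was at 94.6 ppm in VitaminA, 53.7 ppm in ATRA, 78.7 ppm in BMS753 and 520 ppm in BMS961+BMS641. It was detected in 98.4% of BMS961+BMS641 spots (interval 96.5 to 99.4%), against 54.3% to 72.1% elsewhere. The quadrants of that section ranged from 489 to 548 ppm, and the highest quadrant of any other was 97.7 ppm. The ratio to VitaminA was 2.70, with 2.46 to 3.08 over quadrant pairs.

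BMS961+BMS641, the section highest for Sema5b, was the lowest for its relative Sema5a. Sema5a was at 333 ppm in VitaminA, 107 ppm in ATRA, 140 ppm in BMS753 and 66.1 ppm in BMS961+BMS641. The ratios to VitaminA were -1.30, -1.56 and -2.06, and the first turned to 0.06 by the share of spots. VitaminA quadrants, from 318 to 345 ppm, lay above all others.

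**Figure D4:**
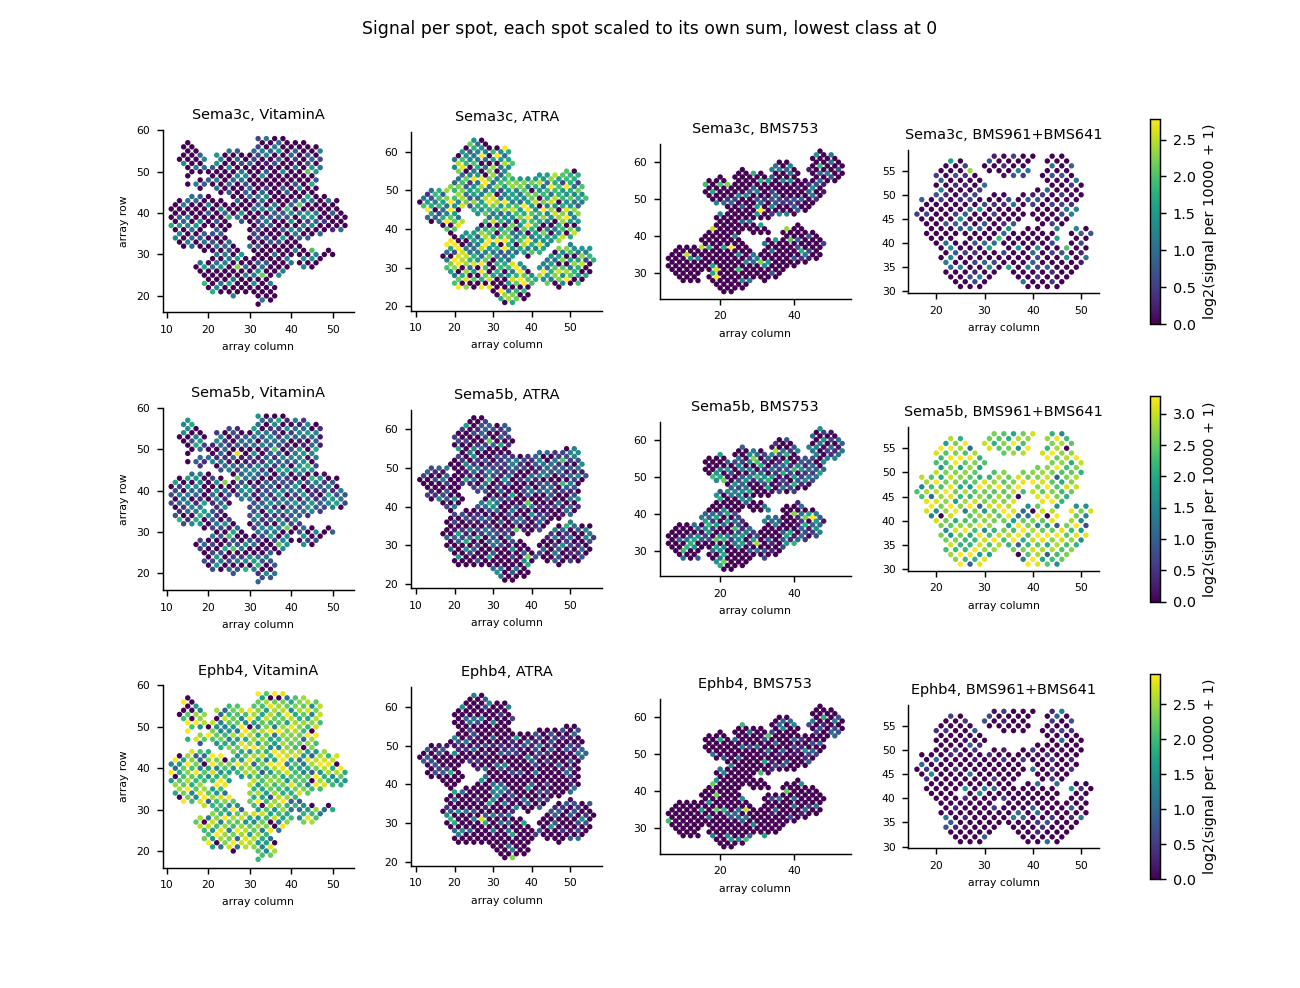
Signal of Sema3c, Sema5b and Ephb4 in every spot of the 4 sections, as log2 of the signal per 10000 plus 1 with the lowest class at 0; axes are array columns and rows, and each row of panels has its own colour scale. Each gene is bright over nearly the whole of 1 section, Sema3c in 83.3% of ATRA spots, Sema5b in 98.4% of BMS961+BMS641 spots and Ephb4 in 94.6% of VitaminA spots.

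Sema7a is the semaphorin with a lipid anchor and can promote axon growth. It was at 11.1 ppm in VitaminA, 5.34 ppm in ATRA, 11.0 ppm in BMS753 and 75.3 ppm in BMS961+BMS641. It was detected in 69.9% of spots of that last section (interval 64.9 to 74.5%), and in 13.8% to 22.3% elsewhere. The ratio to VitaminA was 2.92, the highest of any member. Plxnc1, its plexin receptor, was at 127, 81.3, 142 and 72.2 ppm without a call.

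Sema4b, a transmembrane semaphorin, also stood out in BMS961+BMS641, with 24.5, 13.5, 25.1 and 72.7 ppm and a ratio to VitaminA of 1.79. Sema4d, the ligand of Plxnb1, was at 52.2 to 78.0 ppm and was not called. Sema4a was at 19.8 ppm in VitaminA and 7.07 ppm in ATRA, a ratio of -1.04 that was not called with the lowest class at 0. Sema4f was called lower in BMS753 than in ATRA at -1.22, with 24.8 against 35.7 ppm. Sema4c, at 1.24 to 7.62 ppm, was called higher there at 1.23, and Sema4g had no call. Of the 6 epithelial markers, Epcam and Cdh1 were high in the same section as Sema4b, Sema5b and Sema7a. Krt8 was at 18.7 ppm there, near its 19.0 ppm in ATRA, and at 32.7 ppm in BMS753 and 52.5 ppm in VitaminA. In BMS961+BMS641, Krt18, Krt5 and Krt14 were at 0.36 to 3.59 ppm. Krt18 was detected in 12.9% of spots of that section, against 9.42% to 10.7% elsewhere. The part of these markers in those levels was not tested.

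Class 6 semaphorins are transmembrane ligands of A-type plexins. Of the 4 genes, 3 were lower in ATRA than in VitaminA, and Sema6a was higher. Sema6d was at 642 ppm in VitaminA, 206 ppm in ATRA, 299 ppm in BMS753 and 238 ppm in BMS961+BMS641. The ratios were -1.31, -1.41 and -1.17, the last not called with the lowest class at 0 and the first turning to 0.085 by the share of spots. Sema6c was at 31.9, 6.39, 13.1 and 8.96 ppm, with ratios of -1.82, -1.53 and -1.47. Sema6b was at 22.0, 5.26, 8.38 and 12.2 ppm and was called in ATRA and BMS753, at -1.55 and -1.60. Sema6a, a ligand of Plxna4, was at 61.8, 120, 98.4 and 102 ppm. Its ATRA ratio was 1.27, and the quadrants of the 3 ligand sections overlapped.

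Eph receptors are receptor tyrosine kinases, of which the B class mostly binds ephrin-B ligands and the A class ephrin-A ligands. Ephb4 had the largest difference of any member. It was at 340 ppm in VitaminA, 27.1 ppm in ATRA, 22.1 ppm in BMS753 and 13.8 ppm in BMS961+BMS641. It was detected in 94.6% of VitaminA spots (interval 92.3 to 96.3%) and in 20.9% to 34.2% of spots elsewhere. The ratios were -3.27, -4.19 and -4.27. Ephb4 is known from venous endothelium, where it meets ephrin-B2. Its ligand gene Efnb2 was at 21.4, 14.4, 21.9 and 9.54 ppm and was not called. The summed endothelial markers, given above for Nrp1, were also highest in VitaminA, by a smaller factor and through Flt1, at 761 ppm. Pecam1 and Cdh5 were highest in BMS753, at 57.6 and 16.1 ppm, and Tek in ATRA, at 170 ppm. Their part in the result was not tested.

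Ephb1 was at 291 ppm in VitaminA, 771 ppm in ATRA, 286 ppm in BMS753 and 766 ppm in BMS961+BMS641. ATRA and BMS961+BMS641 overlapped each other and stood above both other sections. The ratios to VitaminA were 1.73, -0.33 and 1.65, and BMS753 over ATRA gave -2.14. Ephb1 directs the uncrossed axons of the retina. Ephb2 was at 125, 93.4, 169 and 237 ppm, with a higher call in BMS961+BMS641 at 1.17. Ephb6, which lacks kinase activity, was at 26.1 ppm in VitaminA and at 1.88, 8.72 and 6.09 ppm in the ligand sections, with ratios of -2.90, -1.79 and -1.68.

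Epha5 was at 286 ppm in VitaminA, 50.5 ppm in ATRA, 94.0 ppm in BMS753 and 44.7 ppm in BMS961+BMS641. VitaminA stood apart, and the quadrants of the ligand sections overlapped. The ratios were -2.15, -1.90 and -2.39. Epha3, a close relative of Epha5 that also binds ephrin-A5, was at 123, 47.8, 71.3 and 34.1 ppm. It was called in all 3 comparisons with VitaminA, at -1.01, -1.08 and -1.56. With the lowest class at 0 it was called only in BMS961+BMS641, at -1.29.

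Epha4, which binds ephrins of both classes, was at 265, 341, 249 and 478 ppm. It was called higher in BMS961+BMS641 at 1.10 and lower in BMS753 than in ATRA at -1.17. Epha10 was at 55.2, 33.6, 32.4 and 35.5 ppm, with a lower call in BMS753 at -1.06. The other Eph receptors, Epha1, Epha2, Epha6, Epha7, Epha8 and Ephb3, were not called. Epha6 was at 352, 425, 455 and 272 ppm and Epha8 had its highest level in BMS753, 54.3 ppm, without overlap of quadrants. The Epha8 ratio of BMS753 to VitaminA was 0.82, under 2-fold.

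Efna5, the ephrin best known for mapping retinal axons, was the ephrin with the widest difference. It was at 171 ppm in VitaminA, 723 ppm in ATRA, 190 ppm in BMS753 and 170 ppm in BMS961+BMS641. The ATRA ratio was 2.41, and BMS753 over ATRA gave -2.64. Efna5 was detected with its receptor gene Epha4 in 79.2%, 88.4%, 60.3% and 80.8% of spots, and with Epha3 in 69.4%, 49.2%, 39.4% and 50.1%.

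The other ephrins had low levels. Efna1 was at 5.84, 13.9, 6.93 and 23.7 ppm, with higher calls in ATRA at 1.45 and in BMS961+BMS641 at 2.10. Efna4 was at 10.5 ppm in BMS753 and at 1.72 to 3.39 ppm elsewhere, and was the single member called higher in BMS753 over VitaminA, at 1.08. With spots weighted equally its ratio was 0.99, under 2-fold. Efna3 was lower in BMS961+BMS641, at 3.02 against 14.8 ppm, with a ratio of -1.72. Efna2 was at 3.38 to 10.2 ppm, and its ATRA call of -1.03 was not made with the lowest class at 0. Efnb1 was at 6.91, 5.92, 10.1 and 11.0 ppm, and Efnb1, Efnb2 and Efnb3 had no call.

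Setting BMS753 against ATRA at the same concentration, the 13 members called lower in BMS753 were Sema3c, Efna5, Robo2, Nrp1, Sema3e, Unc5d, Ephb1, Ntn1, Plxnb3, Dcc, Sema4f, Epha4 and Plxna2, with ratios from -3.40 to -1.15. The members called higher were Efna4, Sema3g and Sema4c, with ratios of 1.36, 1.27 and 1.23, and each was at 10.5 ppm or less in both sections. Against VitaminA, the BMS753 ratios of Dcc, Ntn1, Unc5d, Efna5, Sema3e and Plxnb3 were from -0.15 to 0.32, and those of Ephb1, Sema3c, Robo2 and Nrp1 from -1.25 to -0.33. BMS961+BMS641 was given at a lower concentration, so its levels are set beside the others without a comparison to ATRA or BMS753. Its levels of Dcc, Ntn1, Robo2 and Sema3c were 377, 136, 324 and 24.5 ppm.

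Promoters are shown for the 4 members with the largest ratios among those called, Ephb4, Sema3c, Sema7a and Ephb6. They let a reader see whether the bases near the start of these genes hold half-sites of the kind retinoic acid receptors bind. Each runs from 250 bases before to 50 bases after the start of the gene, 5′ to 3′ on the strand of the gene, from RefSeq in build GRCm38.p6, which is not the build of the files. The half-sites searched were AGGTCA with its variants AGTTCA or else GGGTCA, on both strands, and pairs of them on 1 strand spaced 1, 2 or 5 bases apart; capitals mark a match.
Ephb4: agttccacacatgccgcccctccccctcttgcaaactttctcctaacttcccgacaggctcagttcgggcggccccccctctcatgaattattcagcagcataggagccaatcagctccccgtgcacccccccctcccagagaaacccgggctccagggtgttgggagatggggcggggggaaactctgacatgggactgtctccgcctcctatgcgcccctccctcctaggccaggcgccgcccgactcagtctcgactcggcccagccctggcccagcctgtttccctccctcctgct
Sema3c: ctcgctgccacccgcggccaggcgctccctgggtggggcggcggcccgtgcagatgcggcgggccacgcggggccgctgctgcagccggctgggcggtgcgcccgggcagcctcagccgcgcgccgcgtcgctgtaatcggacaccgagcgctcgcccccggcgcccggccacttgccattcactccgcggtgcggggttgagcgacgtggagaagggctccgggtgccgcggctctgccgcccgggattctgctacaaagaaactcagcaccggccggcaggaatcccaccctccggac
Sema7a: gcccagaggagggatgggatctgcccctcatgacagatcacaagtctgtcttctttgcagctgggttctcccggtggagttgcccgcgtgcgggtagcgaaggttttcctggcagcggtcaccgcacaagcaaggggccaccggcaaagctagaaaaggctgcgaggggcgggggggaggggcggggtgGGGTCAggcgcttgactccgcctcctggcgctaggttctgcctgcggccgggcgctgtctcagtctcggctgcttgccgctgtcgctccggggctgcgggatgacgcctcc
Ephb6: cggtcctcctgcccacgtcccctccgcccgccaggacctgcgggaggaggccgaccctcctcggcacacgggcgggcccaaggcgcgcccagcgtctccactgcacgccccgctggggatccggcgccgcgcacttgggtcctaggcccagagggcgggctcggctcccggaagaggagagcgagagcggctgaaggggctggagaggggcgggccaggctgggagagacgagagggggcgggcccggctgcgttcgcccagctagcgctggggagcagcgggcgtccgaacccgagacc
The Ephb4 window is chr5:137349859-137350158, that of Sema3c chr5:17574566-17574865, that of Sema7a chr9:57939862-57940161 and that of Ephb6 chr6:41605261-41605560, all on the plus strand. Only the Sema7a window held a match, GGGTCA at bases 190 to 195, on the printed strand. Of 32851 promoters of this length, 37.5% held at least 1 half-site and 0.356% a spaced pair. Of 76 promoters of the 60 members found in this table, 21 held a half-site, or 27.6%, and none a spaced pair. With a share of 0.356% over all promoters, 76 are too few to show a difference in pairs. Median GC content was 64.2% in the member promoters and 52.7% over all, and its part in these shares was not tested. A match is a run of letters and not a site, and a missing match says only that these letters are not in this window.

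Other genes of the pathway, a list of 44 co-receptors, cofactors and downstream proteins, were counted in the same way. Of 41 compared in each comparison, 3 were called higher and 4 lower in ATRA over VitaminA, 0 and 4 in BMS753 over VitaminA, 5 and 2 in BMS961+BMS641 over VitaminA, and 1 and 7 in BMS753 over ATRA. Of all genes compared, 11.7% and 13.7%, 7.33% and 13.3%, 12.9% and 13%, and 5.83% and 12.7% were called higher and lower in the same order. With the lowest class at 0, the calls made again were 3 and 2, 0 and 1, 4 and 2, and 1 and 6. Their medians were -0.16, -0.18, -0.08 and -0.09. L1cam, an adhesion molecule of growing axons, was at 310 ppm in ATRA and 11.0 ppm in VitaminA, a ratio of 5.03. Nck2, an adaptor between guidance receptors and actin, was at 276 against 69.0 ppm, with a ratio of 2.32, and Cntn2 had a ratio of 1.10. In BMS961+BMS641, Draxin, a secreted repellent that binds Dcc, was at 53.6 against 16.9 ppm in VitaminA, a ratio of 1.86. Fyn, a kinase that acts below Dcc, had a ratio of 1.90 there and Srgap3, a Robo effector, 1.52. Trio and Vav2 were called lower than VitaminA in all 3 ligand sections. In ATRA, BMS753 and BMS961+BMS641 the ratios were -1.07, -1.19 and -1.34 for Trio and -1.02, -1.41 and -1.48 for Vav2. Dpysl3 and Mical3 were called lower in ATRA, at -1.61 and -1.43, and in BMS753, at -1.01 and -1.21. Mical3 was called higher in BMS961+BMS641, at 1.06, as was Dpysl4, at 1.03. With the lowest class at 0, the ATRA calls of Trio and Vav2 were not made. Nor were the Dpysl4 call and the BMS753 calls of Trio, Dpysl3 and Mical3.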

How the data were processed

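The values are the authors' deposited signal per gene and spot, quantile normalised within each section; the values bear this out, since the sorted values of any spot are a multiple of those of any other. Per the submitters' processing notes, mm9 was the genome build; how reads were aligned, counted and spots filtered is not given in the sources used here. In all but 1 spot of each section, exact zeros precede the lowest run of values in file order, so both were taken as 1 tied class. Levels, ratios, calls and quadrants are as defined in the report, computed with numpy 2.4.6 and pandas 2.3.3. With 1 section per group there are no tests and no p-values. Moran's I used 8 neighbours, on spots scaled to 10000 with the lowest class at 0. The code for ratios and ties was run on simulated sections whose ties were split by gene order by construction. That run cannot show that ties in the real sections arose this way. Full values are given for members called in any comparison with at least 20 ppm and 5% of spots, and for 21 genes always. Of 22218 symbols, 22097 matched the annotation. Members and lists were chosen with earlier results of these data known.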

Additional observations from a re-analysis of the deposited data

How the results depend on the processing

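Of 78 member ratios called, all 78 kept their sign under each alternative that recomputed them except the share of spots, where 3 turned: Sema5a and Sema6d in ATRA over VitaminA, to 0.056 and 0.085, and Plxna4 in BMS753 over VitaminA, to 0.0001. The filter of 20 ppm recomputed 65 of them. The 78 had been picked for their size and for their sign over quadrants, so most could be foreseen to keep their sign. Fewer stayed past 2-fold: 67 with the lowest class at 0, 64 without centring, 58 with the tie class index and 22 by the share of spots. In the counts and medians that follow, the order is ATRA, BMS753 and BMS961+BMS641 over VitaminA, then BMS753 over ATRA, and settings not named moved them by under 1.5 times or within the spread over quadrants. By the share of spots, higher calls fell to 4 in the first and 2 in the third, lower calls to 4, 3, 4 and 4, and the first 3 medians were 0.055, -0.057 and -0.060. With the lowest class at 0, lower calls in the first were 9 and higher calls in the second 2, with medians of -0.056 and -0.060. With the tie class index, an alternative chosen after seeing the data, these were 6 and 3, lower calls in the second were 8, and the medians were -0.099 and -0.0778. Without centring, the medians were -0.58, -0.025, -0.54 and 0.54, higher calls were 3, 5 and 10 in the second to the fourth, and lower calls in the third 19. With spots weighted equally, the first median was -0.33. Higher calls in BMS753 over VitaminA were 0 with a pseudocount of 5 ppm, with a filter of 20 ppm and with centring in bins of span, and 0 to 2 with a quadrant left out in turn; those in BMS753 over ATRA were 0 with that pseudocount and with that filter.

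Median Moran's I of the members was 0.035, 0.064, 0.050 and 0.069 in VitaminA, ATRA, BMS753 and BMS961+BMS641 on the signal as deposited, and 0.0084 in the last with 4 neighbours. Counting any positive signal, the median share of spots over members was 54.1%, 66.7%, 50.9% and 72.6%. The causes of these changes were not tested. No paired analysis was possible because each group has 1 section. The files give no depth, so its limit on low members such as Ntn3, Sema3g and Efna4 is unknown.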

Other observations

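Stmn2, a neuronal marker that takes part in axon growth, was at 533 ppm in BMS961+BMS641 and at 12.7 to 40.4 ppm in the other sections. Gap43, a protein of growth cones, was at 156 ppm in ATRA, against 37.9 to 82.3 ppm elsewhere. Elavl4, an RNA-binding protein of neurons, was at 108 ppm in VitaminA and at 17.7 to 66.2 ppm elsewhere. Neuronal markers did not move together. Tubb3, Rbfox3, Elavl3, Gap43 and Nefm were lowest in BMS961+BMS641, Map2, Elavl4, Snap25, Stmn2 and Dcx in ATRA, and Syt1 and Nefl in VitaminA. The 12 neuronal markers summed to 974, 902, 1198 and 1306 ppm in VitaminA, ATRA, BMS753 and BMS961+BMS641.

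Flt1, a receptor of vascular growth factors, was at 761 ppm in VitaminA, 449 ppm in ATRA, 245 ppm in BMS753 and 194 ppm in BMS961+BMS641. Tek, another endothelial receptor, was highest in ATRA, at 170 ppm. Mlc1, an astroglial membrane protein, was at 78.3 ppm in ATRA and at 2.26 to 8.01 ppm elsewhere. Other astroglial markers, Aqp4, Slc1a3, Aldh1l1, S100b and Gja1, were lowest in ATRA, and Gfap and Slc1a2 were lowest in BMS961+BMS641. The 8 astroglial markers summed to 184, 160, 184 and 91.3 ppm in VitaminA, ATRA, BMS753 and BMS961+BMS641. These are levels of 1 section each, chosen after their values were seen.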
